A study of Homo sapiens with 12 samples.

Results

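The response of human embryonic kidney cells to 24 h of wild-type Ero1α was taken from 6 of the 12 arrays of the series, 3 of uninduced and 3 of induced cells, chosen by their titles. The cells were HEK 293 Flp-In T-REx, a line in which a transgene sits at a single landing site under a promoter that doxycycline switches on. The WT line carried Ero1α-WT there. In the WT uninduced group no doxycycline was given, and in the WT induced group doxycycline was given for 24 h. Each group had 3 biological replicates, A, B and C, and the parental line with its own ERO1A gene was shared by all. The remaining 6 arrays came from a sister line with the same layout that carried Ero1α-C104A/C131A, a form without 2 regulatory cysteines, and served to estimate the spread and for the test of a difference between the lines. Whether a stable line was 1 clone or a pool is not stated in the sources used here. Cells given doxycycline but carrying no Ero1α transgene were not analysed here. The drug and the oxidase cannot be told apart. The table held 32321 probe sets, of which 1 was used for each of 18404 named genes.

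Ero1α is an oxidase in the lumen of the endoplasmic reticulum (ER). It passes electrons from protein disulfide isomerase to oxygen, with hydrogen peroxide as a by-product, and so drives disulfide bonds into proteins that enter the secretory pathway. A load of misfolded protein in the ER is sensed by ATF6, IRE1 and PERK, the sensors of the unfolded protein response. ATF6 is known for chaperone genes, IRE1 acts by splicing XBP1 RNA and is known for genes of transport and degradation, and PERK slows translation and acts through ATF4 and CHOP. Regulatory disulfides hold the wild-type oxidase back when its substrates are oxidised.

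The values were log2 levels made with RMA by the authors, with array medians of 6.36 to 6.43 and correlations across probe sets of 0.992 to 0.996 between arrays of 1 group in the WT line. In the WT line the A arrays stood apart: after group means were removed, the first component held 49.6% of the remaining variance and separated WT uninduced A (0.68) and WT induced A (0.43) from the B and C arrays (-0.44 to -0.14). Of the genes set out as marks of HEK 293, VIM, KRT8, NEFL, CDH2 and KRT18 had mean uninduced levels of 9.88 to 11.27, while PAX2 (6.58), LHX1 (6.46) and NEFM (5.33) lay near or under the array medians. The leukocyte gene PTPRC was at 3.20, and the mean over 6 leukocyte markers was 5.14 to 5.35 on uninduced and 5.26 to 5.35 on induced arrays. None of the 35 marker genes passed the test. In bulk RNA, fewer cells of a kind and less RNA per cell cannot be told apart.

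ERO1A was first examined as the induced gene. Its log2 levels were 10.42, 10.62 and 10.60 on the uninduced arrays A, B and C, and 12.66, 12.68 and 12.68 on the induced ones. The groups were separated by 2.04 on the log2 scale, and the induced arrays lay close together (SD 0.01, n = 3) against an SD of 0.11 (n = 3) without induction. The log2 change was 2.13 ± 0.06 (SE; 95% interval 1.99 to 2.27), a 4.37-fold increase (adjusted p = 1.42e-08, limma). The probe set does not separate the RNA of the transgene from that of the cell's own gene.

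Beside ERO1A, 20 genes rose and none fell at an adjusted p of 0.05 in limma, so that 0.114% of the 18404 genes were called higher. At an unadjusted p under 0.05, 585 genes were higher (3.18%) and 235 lower (1.28%). For each of the 20 genes the 3 induced arrays lay above the 3 uninduced arrays, by a gap of 0.23 to 0.60 on the log2 scale. The genes were called on these same arrays, so the separation describes them and adds no support. Over all genes 5.24% had induced arrays all above and 3.84% all below. The increases were small, from 1.21-fold for CALR to 1.64-fold for DNAJB9, and 5 of these genes changed by at least 1.5-fold. Of the 20, 15 belonged to 11 lists of ER and secretory genes that together held 256 measured genes, and 5 did not. With ERO1A set aside, the share called higher was 5.86% in the lists and 0.0276% among all other genes. The lists were chosen with earlier results of these data known, so the shares are a description. In the plot of the called genes by array, the open and filled symbols do not meet for any gene.

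**Figure D1:**
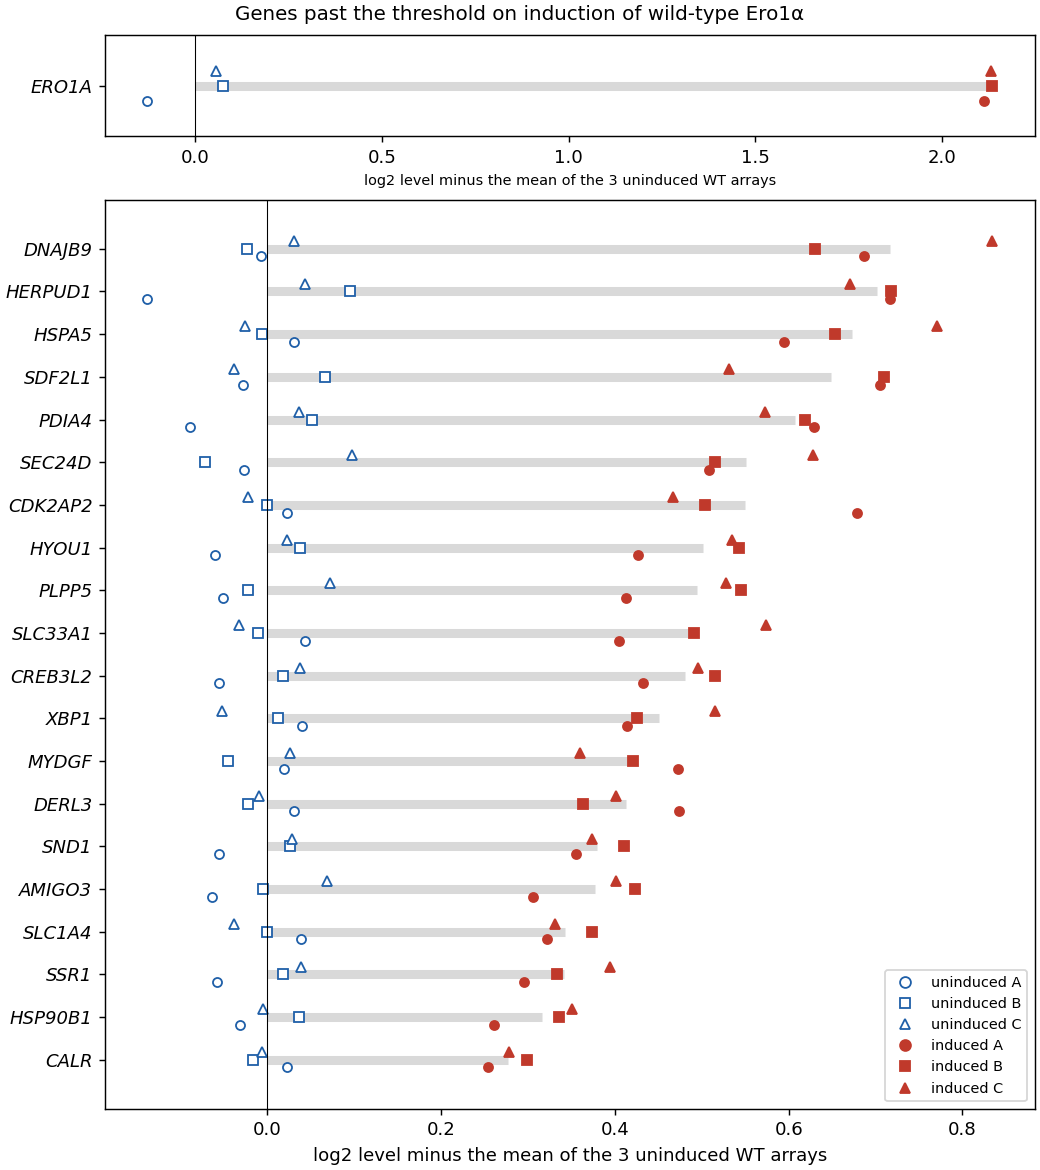
Log2 level of each of the 6 WT arrays minus the mean of the 3 uninduced arrays, for ERO1A (upper panel, own axis) and the 20 other genes past an adjusted p of 0.05 (lower panel). Open symbols are uninduced and filled symbols induced arrays, circles A, squares B and triangles C, and the grey bar ends at the log2 change, from 0.28 for CALR to 0.72 for DNAJB9.

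The count of calls depended on the arrays and on the estimate of spread. With ERO1A included it was 21. Leaving out WT uninduced B gave 9, leaving out WT induced B gave 12 and leaving out WT induced C gave 11. The main fit did not pair the arrays. With arrays of the same letter paired by a replicate block, the count was 6 (0.0326% of genes). These were ERO1A, HSPA5, SDF2L1, PDIA4, HERPUD1 and HYOU1, the last 5 at adjusted p values of 0.0268 to 0.0353. The other 15 genes were then at adjusted p values of 0.0535 (SEC24D) to 0.499 (CALR) in limma. Without the A arrays it was 5: ERO1A, HSPA5, PDIA4, HERPUD1 and HYOU1. When the 6 WT arrays were fitted alone ERO1A was the only call, with or without the block. HSPA5, PDIA4, HERPUD1 and HYOU1 each passed in 15 of 17 alternatives, all but those fitted on the WT arrays alone. At the other end, SLC33A1, SLC1A4, SSR1, HSP90B1 and CALR each passed in 5 of 17. SLC1A4, SSR1, HSP90B1 and CALR passed in no alternative that left out a WT array.

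Of the BiP machinery, HSPA5, SDF2L1, HYOU1 and DNAJB9 rose, while SIL1 and DNAJB11 did not pass. HSPA5 encodes BiP, the Hsp70 chaperone of the ER lumen. Its log2 levels were 11.18, 11.15 and 11.13 without and 11.75, 11.80 and 11.92 with induction (letters A, B and C here and below). It rose 1.59-fold (log2 change 0.67 ± 0.06, SE, adjusted p = 0.000597). The SD was 0.03 without and 0.09 with induction (n = 3 each) and the gap between the groups was 0.56, several times that spread. SDF2L1, which works with BiP and its J-protein partners, was at 7.63, 7.72 and 7.62 without and 8.36, 8.37 and 8.19 with induction. It rose 1.57-fold (adjusted p = 0.00162). HYOU1, an Hsp110-type chaperone and nucleotide exchange factor of BiP, was at 8.22, 8.32 and 8.31 without and 8.71, 8.83 and 8.82 with induction. It rose 1.42-fold (adjusted p = 0.00224), and the other exchange factor, SIL1, was at 0.959-fold (adjusted p = 0.996), with a sign that turned without WT induced C.

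J-proteins recruit BiP to its clients. DNAJB9, the J-protein ERdj4, was at 6.94, 6.93 and 6.98 without and 7.64, 7.58 and 7.79 with induction. It rose 1.64-fold (log2 change 0.72 ± 0.09, SE, adjusted p = 0.0071), the largest change after ERO1A among the called genes. DNAJC3 changed by 1.45-fold and did not pass (adjusted p = 0.0921). Its uninduced arrays were uneven, with A at 7.96 and B and C at 8.30 and 8.36, below induced levels of 8.68, 8.81 and 8.72, and its log2 change was 0.53 with all arrays and 0.44 without the A arrays. DNAJB11 was at 1.30-fold (adjusted p = 0.812). HSP90B1, the Hsp90 of the ER, rose 1.24-fold (adjusted p = 0.047) from levels of 11.82, 11.89 and 11.85 to 12.11, 12.19 and 12.20. Its cytosolic paralogs HSP90AA1 and HSP90AB1 had log2 changes of -0.03 and -0.06.

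Of 26 measured BiP and ER chaperone genes, 5 rose and 0 fell, against 0.114% of all genes called higher. The induced arrays lay all above in 15 of 26, where the share of all genes was 5.24%, and the median log2 change was 0.22 against 0.001 for all genes. Members with separated groups that did not pass included the secreted stress proteins CRELD2 (0.34) and MANF (0.34), and the prolyl isomerases FKBP11 (0.32), FKBP2 (0.30) and PPIB (0.24), as log2 changes. The chaperones SERPINH1 of collagen (0.02) and CNPY2 (-0.02) were near 0.

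Promoters of several of these genes hold the ER stress element (ERSE), a pair of sequences known to be bound by NF-Y at one end and ATF6 at the other. The stretches below lie upstream of the start site in RefSeq's GRCh38.p14, are read 5′ to 3′ on the gene's strand, and show where the element sits in the genes that rose. Capitals mark the fixed letters of the ERSE (CCAAT, then any 9 bases, then CCACG) or of the related ERSE-II (ATTGG, any base, then CCACG) on either strand. The first line is the whole stretch of 250 bases before the HSPA5 start (chr9:125241344-125241593, minus strand), and the others carry 20 bases on each side of the match or matches. They come from XBP1 (chr22:28800583-28800641, minus strand), HSP90B1 (chr12:103930196-103930359, plus strand) and CALR (chr19:12938364-12938422, plus strand) for the ERSE, and from HERPUD1 (chr16:56932005-56932055, plus strand), SDF2L1 (chr22:21642094-21642144, plus strand) and HYOU1 (chr11:119057254-119057410, minus strand) for the ERSE-II.
HSPA5: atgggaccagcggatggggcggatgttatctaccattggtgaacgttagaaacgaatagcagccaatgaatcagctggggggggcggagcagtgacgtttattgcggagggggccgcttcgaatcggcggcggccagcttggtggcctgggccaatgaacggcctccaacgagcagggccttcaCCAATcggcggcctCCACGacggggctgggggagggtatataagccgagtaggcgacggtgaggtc
XBP1: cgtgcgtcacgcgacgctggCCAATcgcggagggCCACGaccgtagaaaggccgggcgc
HSP90B1: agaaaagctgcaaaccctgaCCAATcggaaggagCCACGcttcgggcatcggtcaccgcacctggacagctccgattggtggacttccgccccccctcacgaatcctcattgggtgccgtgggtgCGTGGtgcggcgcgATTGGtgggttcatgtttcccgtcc
CALR: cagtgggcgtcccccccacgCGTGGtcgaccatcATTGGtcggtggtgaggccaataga
HERPUD1: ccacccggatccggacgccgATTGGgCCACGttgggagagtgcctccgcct
SDF2L1: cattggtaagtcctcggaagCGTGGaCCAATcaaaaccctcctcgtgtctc
HYOU1: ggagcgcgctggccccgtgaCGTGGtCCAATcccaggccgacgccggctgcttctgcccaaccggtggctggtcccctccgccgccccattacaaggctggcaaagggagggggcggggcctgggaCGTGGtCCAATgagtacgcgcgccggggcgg

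The search covered windows of 300 bases, 250 before and 50 after the start, on both strands, and a gene with several windows counted once. Of the 20 genes, 17 had a window. An exact ERSE was found in 4 of these 17 (23.5%) and in 19 of all 14228 tested genes with a window (0.134%). An ERSE-II was found in 3 of 17 (17.6%) and in 17 of all (0.119%). The 5 letters CCAAT alone were in 16 of 17 (94.1%) and in 42.2% of all, CCACG alone in 14 of 17 (82.4%) and 51.1% of all, and both are parts of the 2 elements. TGACGTG, the core of the element named UPRE, was in 1 of 17 (HYOU1, where it overlaps an ERSE-II) and in 2.84% of all. A match is a description of the letters and does not show a bound site.

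Turned round, the genes can be taken by the element and not by their change. The 36 genes with an ERSE or ERSE-II had a median log2 change of 0.12, against -0.002 for all genes with a window, and 7 of them rose (19.4%), against 0.127% of all genes with a window. For the 19 genes with an ERSE the induced arrays lay all above in 12 (63.2%, against 5.15%) and the median was 0.26. For the 17 with an ERSE-II the groups were so separated in 4 (23.5%) and the median was 0.03. Among ERSE genes that did not pass were FICD, the enzyme that adds AMP to BiP (log2 change 0.38), CRELD2 (0.34), TRIM5 (0.33), ERO1B (0.32), PDIA6 (0.29), the mannosyltransferase ALG12 (0.19), SERP1 (0.18) and CANX (0.18). ZNF17 with an ERSE (-0.07) and GYS1 with an ERSE-II (-0.09) were the lowest.

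Disulfide isomerases and oxidases are the direct partners of Ero1α. PDIA4, an isomerase with several thioredoxin domains, was at 10.33, 10.47 and 10.46 without and 11.05, 11.04 and 10.99 with induction. It rose 1.52-fold (log2 change 0.61 ± 0.05, SE, adjusted p = 0.0006), with a gap of 0.52 between the groups. It was the only one of 21 measured isomerases to pass in the main fit (against 0.114% of all genes). Of the 21, 7 had induced arrays all above (against 5.24% of all genes), with a median log2 change of 0.05. PDIA6 was at 1.22-fold (adjusted p = 0.0754), with levels of 10.62, 10.57 and 10.62 and then 10.85, 10.89 and 10.95. P4HB, the canonical isomerase and a main substrate of Ero1α, was at 1.15-fold (adjusted p = 0.456) with separated groups, and its second probe set changed by 0.26 on the log2 scale against 0.20 for the one used. PDIA6 passed in 4 of 17 alternatives and P4HB in 2, while no isomerase passed with the WT arrays alone. PDIA5 (0.28), DNAJC10 (0.25) and TXNDC11 (0.25) had separated groups and did not pass, while the membrane isomerase TMX1 (-0.07) and AGR2 (-0.05) were under 0 as log2 changes.

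Of 18 other ER oxidation and peroxide genes, 0 passed in limma and 3 were higher at an unadjusted p under 0.05 (against 3.18% of all genes). ERO1B, the paralog of ERO1A, was at 7.47, 7.82 and 7.95 without and 7.995, 8.16 and 8.04 with induction. Its 1.25-fold change did not pass (adjusted p = 0.972), and its log2 change of 0.32 was 0.18 without WT uninduced A. PRDX4, the peroxiredoxin that uses ER peroxide, was at 1.01-fold, GPX7 at 1.07-fold, GPX8 at 1.06-fold and the sulfhydryl oxidase QSOX1 at 1.05-fold, each at an adjusted p of 0.996. The signs of PRDX4, GPX8 and QSOX1 turned without the A arrays, and that of GPX7 without WT induced A. The median of this list was 0.02, and it was -0.003 without the A arrays.

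The lectin chaperones calnexin and calreticulin hold glycoproteins while they fold. CALR was at 11.06, 11.02 and 11.03 without and 11.29, 11.34 and 11.31 with induction. It rose 1.21-fold (adjusted p = 0.047), the smallest change that passed, with SDs of 0.02 in both groups (n = 3 each). The call was lost when any WT array was left out, and CALR passed in 5 of 17 alternatives. CANX had a log2 change of 0.18 and did not pass (adjusted p = 0.604). Of 15 measured genes of the lectin cycle 1 rose (against 0.114% of all genes), 9 had induced arrays all above (against 5.24% of all genes) and the median log2 change was 0.14. The mannosidase-like EDEM2 (0.18) and EDEM3 (0.16) had separated groups, and EDEM1 was at 1.03-fold (adjusted p = 0.996), with a sign that turned without WT uninduced A or WT induced B.

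ER-associated degradation moves misfolded proteins to the proteasome. HERPUD1, a membrane protein of the HRD1 ligase complex, was at 8.61, 8.85 and 8.79 without and 9.47, 9.47 and 9.42 with induction. It rose 1.63-fold (log2 change 0.70 ± 0.07, SE, adjusted p = 0.00162), and its lowest array was WT uninduced A. DERL3, a derlin of the same complex, rose 1.33-fold (adjusted p = 0.0082) from 8.16, 8.11 and 8.12 to 8.60, 8.49 and 8.53. Its paralogs DERL1 (1.04-fold) and DERL2 (1.11-fold) did not pass. The ligase SYVN1 (1.19-fold, adjusted p = 0.408) and its partner SEL1L (1.14-fold, adjusted p = 0.996) had separated groups and did not pass. These were 2 of 27 measured genes of degradation (against 0.114% of all genes), with a median of 0.05. The groups were separated upward in 8 of 27 (against 5.24% of all genes) and downward in 1 (against 3.84% of all genes), RNF139 with a log2 change of -0.13. The ATPase VCP, which pulls substrates out, had a log2 change of 0.04.

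The chaperone list shares DNAJB9 with the list of genes known as targets of IRE1 and XBP1, so these lists are not independent. Those targets had a median change like that of the chaperones. Of 33 measured, 5 rose (against 0.114% of all genes), 24 had induced arrays all above (against 5.24% of all genes) and all 33 had a log2 change above 0, where 50.5% of all genes did. The median was 0.22, and it was 0.20 without the A arrays and 0.19 without WT uninduced A. Over the alternatives 31 to 33 of the 33 were above 0, with 31 without WT uninduced A or without WT induced B. The 5 calls became 0 with the replicate block, without the A arrays and with the WT arrays alone, 2 without WT uninduced B or without WT induced C, and 3 without WT induced B or with arrays centred on their medians. XBP1 itself was at 10.07, 10.04 and 9.98 without and 10.44, 10.46 and 10.54 with induction and rose 1.37-fold (adjusted p = 0.00439). The probe set does not separate spliced from unspliced XBP1 RNA. PLPP5, a phospholipid phosphatase, rose 1.41-fold (adjusted p = 0.0071).

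**Figure D2:**
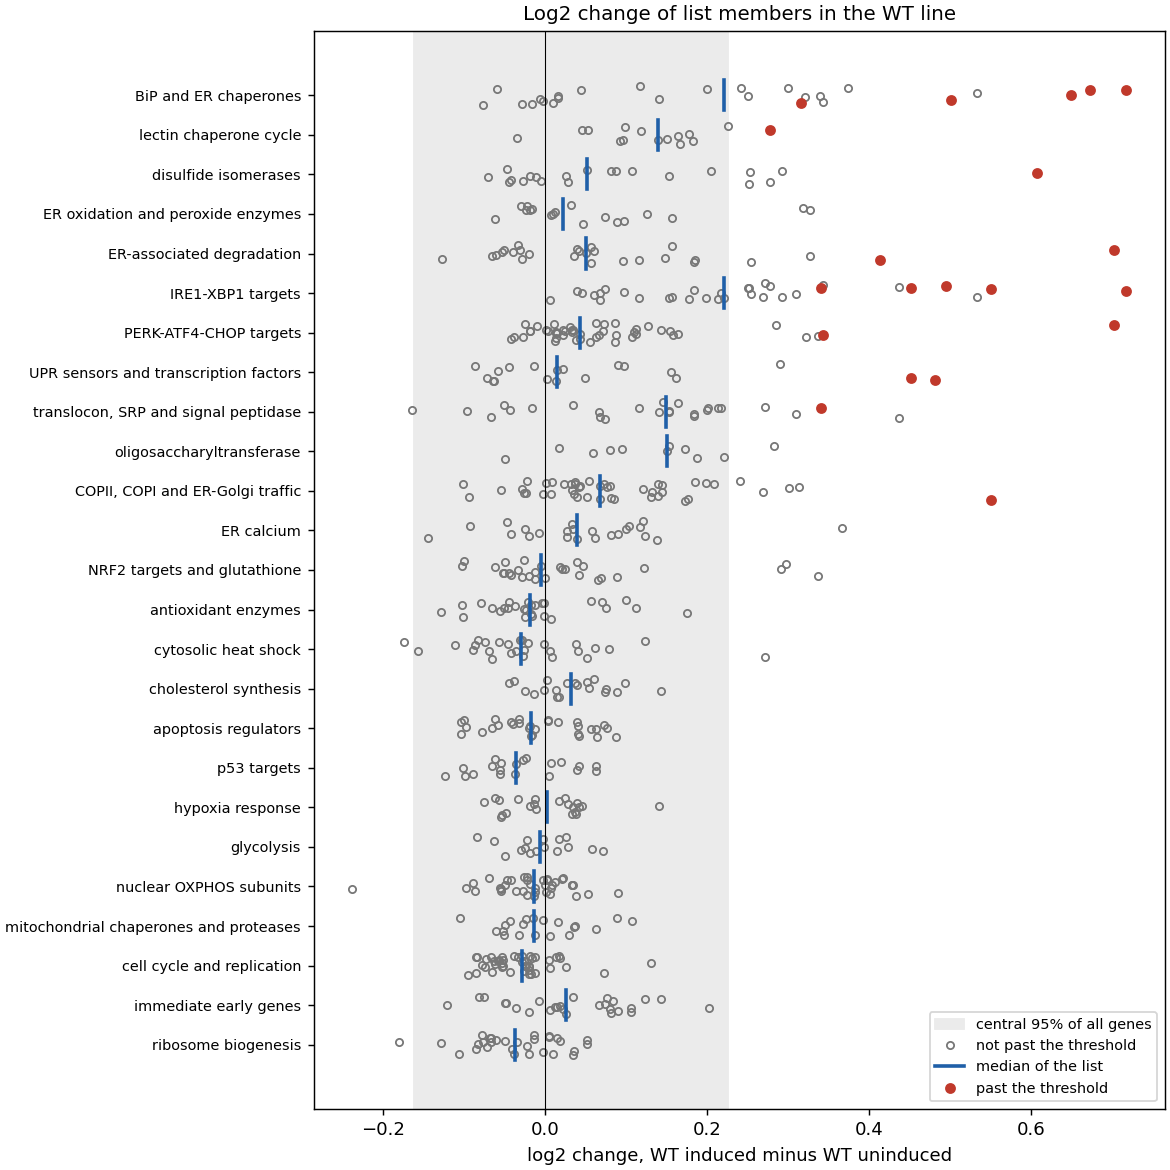
Log2 change on induction in the WT line for the measured members of 25 gene lists; red points passed an adjusted p of 0.05, open points did not, and the blue line is the median of the list. The grey band is the central 95% of all genes (-0.163 to 0.225). The medians lie highest for the chaperones (0.22) and the IRE1-XBP1 targets (0.22).

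Entry into the ER and N-glycosylation followed a similar pattern with few calls. SSR1, a subunit of the translocon-associated TRAP complex, rose 1.27-fold (adjusted p = 0.0403) from 10.15, 10.23 and 10.25 to 10.51, 10.54 and 10.60. The other TRAP subunits also had separated groups: SSR3 was at 1.35-fold (adjusted p = 0.193), SSR2 at 1.15-fold (adjusted p = 0.361) and SSR4 at 1.11-fold (adjusted p = 0.996). The translocon channel subunits SEC61B and SEC61A1 had log2 changes of 0.27 and 0.22, and the paralog SEC61A2 had -0.16. Of 26 genes of translocon, signal recognition particle and signal peptidase, 1 rose (against 0.114% of all genes) and 17 had induced arrays all above (against 5.24% of all genes), with a median of 0.15. Of 11 oligosaccharyltransferase subunits 0 passed in limma, 6 were higher at an unadjusted p under 0.05 (against 3.18% of all genes) and 7 were separated upward (against 5.24% of all genes). The median was 0.15, with the largest changes in OSTC (0.28) and the catalytic STT3A (0.22). TUSC3 was at -0.05.

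Vesicle coats carry cargo from the ER to the Golgi. SEC24D, a cargo-binding subunit of the COPII coat, was at 7.65, 7.60 and 7.77 without and 8.18, 8.19 and 8.30 with induction. It rose 1.46-fold (log2 change 0.55 ± 0.06, SE, adjusted p = 0.00439). Its paralogs did not pass: SEC24A had a log2 change of 0.01 (adjusted p = 0.998), SEC24B of -0.05 and SEC24C of 0.13 (both adjusted p = 0.996). The sign of SEC24A turned with arrays centred on their medians, and without WT uninduced B or WT induced B. SEC24D was the only one of 46 measured traffic genes to pass (against 0.114% of all genes), 15 were separated upward (against 5.24% of all genes) and the median was 0.07. The cargo receptors TMED10 (0.31, adjusted p = 0.0921) and SURF4 (0.24, adjusted p = 0.215) and the SNARE STX5 (0.30, adjusted p = 0.583) had separated groups as well.

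Among sensors and transcription factors, CREB3L2 and XBP1 rose and the sensors did not pass. CREB3L2, an ER-anchored bZIP factor released by cleavage under stress, was at 9.01, 9.08 and 9.10 without and 9.49, 9.58 and 9.56 with induction. It rose 1.40-fold (adjusted p = 0.00439). EIF2AK3, which encodes PERK, was at 1.22-fold (adjusted p = 0.626) with separated groups, ATF6 was at 1.01-fold and ERN1, which encodes IRE1, had a log2 change of 0.0023. The signs of ATF6 and ERN1 turned without the A arrays. Of 19 measured genes of this list 2 rose (against 0.114% of all genes), 3 were separated upward (against 5.24% of all genes), and the median log2 change was 0.015.

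Targets of PERK, ATF4 and CHOP held 2 calls and a small median. Of 48 measured genes 2 rose (against 0.114% of all genes), HERPUD1, which is also a degradation gene, and SLC1A4, a transporter of neutral amino acids (1.27-fold, adjusted p = 0.0491), and the median log2 change was 0.04. The induced arrays lay all above in 14 of 48 (against 5.24% of all genes), 41 of 48 had a change above 0 (against 50.5% of all genes) and 9 of 48 were higher at an unadjusted p under 0.05 (against 3.18% of all genes). DDIT3, which encodes CHOP, was at 7.20, 7.21 and 7.20 without and 7.70, 7.38 and 7.50 with induction. The groups were separated, but the SD was 0.16 with induction (n = 3) and the 1.25-fold change did not pass (adjusted p = 0.567). The log2 change of the factor ATF4 was 0.09. Among its targets the changes were 0.16 for the pseudokinase TRIB3, 0.11 for the asparagine synthetase ASNS, 0.02 for CHAC1, which degrades glutathione, and -0.03 for the factor ATF3, and none passed. The signs of CHAC1 and ATF3 turned without the A arrays. SLC7A11, the cystine transporter subunit shared with the oxidant response, was at 1.26-fold (adjusted p = 0.73) with separated groups.

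Genes of the oxidant response held no call. Of 29 measured NRF2 and glutathione genes 0 passed in limma, and the median log2 change was -0.005. At an unadjusted p under 0.05, 3 were higher and 0 lower (against 3.18% and 1.28% of all genes). The log2 changes were 0.05 for the heme oxygenase gene HMOX1, 0.07 for the quinone reductase gene NQO1 and -0.02 for GCLM of glutathione synthesis. They were -0.04 for the thioredoxin reductase gene TXNRD1 and -0.10 for SRXN1, the sulfiredoxin gene, all at an adjusted p of 0.996. The signs of NQO1 and GCLM turned without the A arrays, and those of HMOX1 and TXNRD1 without WT uninduced B. Of 28 antioxidant enzymes 0 passed, with a median of -0.02. GLRX (log2 change 0.18) was the 1 enzyme higher at an unadjusted p under 0.05 (against 3.18% of all genes). The 95% intervals still allow changes: for HMOX1 the interval ran from -0.15 to 0.24 on the log2 scale, and for SRXN1 from -0.27 to 0.07.

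Further lists also held no call, among them the ER calcium genes and the cytosolic heat shock genes. Of 28 cytosolic heat shock genes 0 passed, with a median log2 change of -0.03. At an unadjusted p under 0.05, 2 were higher and 0 lower (against 3.18% and 1.28% of all genes). Induced arrays lay all above in 2 (against 5.24% of all genes) and all below in 4 (against 3.84%). The 4 included CHORDC1 (-0.16) and the constitutive Hsp70 gene HSPA8 (-0.03). Of 20 cholesterol synthesis genes 0 passed, with 1 higher at an unadjusted p under 0.05 (against 3.18% of all genes). HMGCS1 was at 1.01-fold (adjusted p = 0.996), with a sign that turned without WT uninduced A, WT induced B or WT induced C. Of 23 ER calcium genes 0 passed, with 2 higher at an unadjusted p under 0.05 (against 3.18% of all genes). NUCB2, a calcium-binding protein, was at 1.29-fold (adjusted p = 0.313). The lists of apoptosis, p53, hypoxia, glycolysis, nuclear OXPHOS subunits, mitochondrial chaperones, cell cycle, immediate early genes and ribosome biogenesis had 0 calls. Their medians lay between -0.037 (ribosome biogenesis) and 0.03 (immediate early genes). At an unadjusted p under 0.05, 1 of their genes was higher and 3 were lower (against 3.18% and 1.28% of all genes).

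The 5 called genes outside the lists rose by 1.30-fold to 1.46-fold. CDK2AP2, a regulator that binds CDK2, was at 8.06, 8.03 and 8.01 without and 8.71, 8.54 and 8.50 with induction (1.46-fold, adjusted p = 0.00696). SLC33A1, the acetyl-CoA transporter of the ER membrane, rose 1.40-fold (adjusted p = 0.0208) and MYDGF, a secreted protein that is retained in the ER, rose 1.34-fold (adjusted p = 0.00696). SND1, a protein with nuclease-like domains that binds RNA, rose 1.30-fold (adjusted p = 0.0112), with SND1-IT1, an RNA listed inside its gene, at a log2 change of 0.41 (adjusted p = 0.933). AMIGO3, a cell-surface adhesion protein, rose 1.30-fold (adjusted p = 0.0272) from 8.11, 8.16 and 8.24 to 8.47, 8.59 and 8.57. AMIGO3 overlaps RNF123 in the RefSeq table, and RNF123 had a log2 change of -0.07. Likewise PLPP5 overlaps DDHD2 (-0.07) and DERL3 overlaps SMARCB1 (0.01).

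Outside the calls, the largest increases with separated groups were that of DNAJC3, already given, and those of 4 genes outside the ER lists: MOG, a myelin protein (0.62), PCDHA5, a protocadherin (0.56), CDSN of the skin (0.54) and PTPRZ1, a receptor phosphatase (0.49), on the log2 scale and at adjusted p values of 0.701 to 0.996. For MOG the uninduced arrays ran from 6.08 to 7.09 and its other probe sets changed by 0.19 and 0.15, and for CDSN the second probe set had -0.13. The largest decreases among genes with separated groups were PBOV1 (-0.40), PCDHA11 (-0.39), PCAT4 (-0.39), the taste receptor TAS2R13 (-0.38) and DPPA4 (-0.36), at adjusted p values of 0.848 to 0.996 and at uninduced levels of 3.49 to 5.70.

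The WT response was set beside that of the C104A/C131A line, whose arrays are separate. ERO1A itself rose less in the WT line, with a log2 change of 2.13 against 2.43 in the other. The difference (WT minus mutant) was -0.30 (SE 0.09, unadjusted p = 0.0065, adjusted p = 0.982, limma). Whether the unequal rise of ERO1A bears on the differences of other genes was not tested. Of the 20 genes called in the WT line, 19 were also called in the other line, where 59 of 18404 genes were called higher (0.321%). The exception was AMIGO3 (adjusted p = 0.849 in the C104A/C131A line, limma). Of the 20, 14 had the larger log2 change in the other line and 6 in the WT line. The median change of the 20 was 0.49 in the WT line and 0.59 in the other. In the test of the difference, 0 of 18404 genes passed an adjusted p of 0.05 in limma (smallest 0.185), and 774 (4.21%) had an unadjusted p under 0.05. Of the 20 genes, 8 reached an unadjusted p under 0.05 with the smaller change in the WT line and 1, AMIGO3, with the larger one.

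Among the 20 genes HERPUD1 differed most, with a change smaller by 0.66 in the WT line (WT minus mutant -0.66, 95% interval -0.87 to -0.44). The differences were -0.50 for DERL3, -0.46 for HSPA5, -0.46 for SDF2L1, -0.45 for PDIA4, -0.44 for HYOU1, -0.36 for HSP90B1 and -0.21 for PLPP5. Of the 5 called IRE1-XBP1 targets, PLPP5 is among these 8 genes and the other 4 had intervals that span 0: XBP1 differed by 0.06 (95% interval -0.10 to 0.22), DNAJB9 by 0.09 (-0.19 to 0.37), SEC24D by -0.08 (-0.28 to 0.12) and SSR1 by -0.06 (-0.22 to 0.11). CREB3L2 differed by -0.01 (-0.18 to 0.16). These 5 intervals do not reach the value of HERPUD1, but they hold smaller differences. Intervals that span 0 were not particular to IRE1-XBP1 targets. They were also found for CALR (-0.27 to 0.007), SLC1A4 (-0.32 to 0.03), CDK2AP2, SLC33A1, MYDGF and SND1. Over all 33 measured IRE1-XBP1 targets the median log2 change was 0.22 in the WT line and 0.30 in the other. For the 26 BiP and ER chaperone genes the medians were 0.22 and 0.29. The log2 change of AMIGO3 was 0.38 in the WT line and 0.12 in the other (difference 0.26, 95% interval 0.08 to 0.43).

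**Figure D3:**
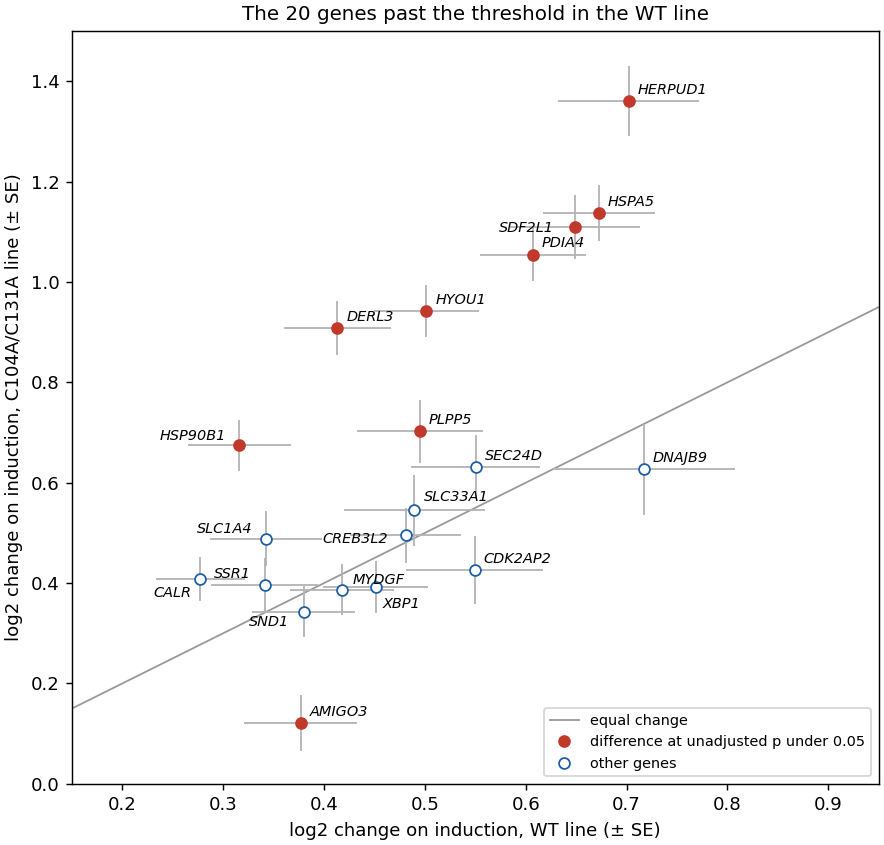
Log2 change on induction in the WT line (x axis) and in the C104A/C131A line (y axis), each ± SE, for the 20 genes past the threshold in the WT line. Filled points have an unadjusted p under 0.05 for the difference, 8 above and 1 (AMIGO3) below the line of equal change; none passed after adjustment over all genes.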

How the data were processed

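RNA of 6 WT and 6 C104A/C131A cultures was read on Affymetrix arrays, per the labels' protocols. The authors deposited log2 levels computed by RMA (per the submitters' processing notes). No RMA version is given in the sources used here. That the scale is log2 was read from its range (1.06 to 14.10). RMA usually equalises probe intensities between arrays, so a shift shared by most genes may not be seen.

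Of 32321 probe sets, 19158 carry 1 symbol in GEO's platform annotation, 1388 several and 11775 none. A gene was represented by its brightest probe set (18404 genes, 18376 found in RefSeq by Entrez ID). All 12 arrays entered 1 limma fit (version 3.58.1, R 4.3.3) of 4 group means with no replicate block. P-values are two-sided and adjusted over the whole table (Benjamini-Hochberg, threshold 0.05), errors are moderated SEs and intervals 95%. Titles name the replicates biological and say no more, so p-values measure the spread between these samples. Whether letters pair arrays was checked on deviations from group means. In the WT line same-letter arrays had r of 0.391, 0.139 and 0.246 over genes, each above 0.1. Unlike letters were also above 0.1 for uninduced B with induced C (0.117) and uninduced C with induced B (0.116). Where 1 of the unlike letters was A, r was -0.317 to -0.182. The values thus set A apart from B and C and do not show pairs within B and C. Same-letter arrays were treated as pairs only in the alternatives with the replicate block. The main p-values, SEs and intervals leave this pairing out. In the C104A/C131A line r was 0.117, -0.143 and -0.0192.

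The members, gene lists and tests were chosen with earlier results of these data known. Named were ERO1A, all called genes, the 5 largest changes each way with separated groups that did not pass, and a fixed set of ER stress and oxidant response genes; PDIA3 had no probe set with 1 symbol. Alternatives are listed in the closing section, and leaving out both A arrays was added after seeing the data. The steps were run on simulated data with independent noise in each array. Those data held no component shared between arrays, so the run does not bear on the A arrays or on pairing. Promoter windows are RefSeq's (GRCh38.p14), matched by gene ID. The number of arrays limits the precision.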

Additional observations from a re-analysis of the deposited data

Results flagged for a closer look

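Outside the named genes, 1 probe set without a gene symbol (7893373) passed when all 32321 probe sets were tested together: its log2 level changed by -0.77 in the WT line (-0.774, SE 0.105, adjusted p = 0.0403, limma), from 6.94, 6.93 and 6.96 to 6.15, 6.20 and 6.16. In the C104A/C131A line the change was 0.41, and the test of the difference gave an adjusted p of 0.309. What the probe set reads is not named in the annotation used here.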

How the results depend on the processing

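ERO1A passed in every alternative run, and none of the other 20 genes changed sign. The count of 21 became 6 with the replicate block, 1 with the 6 WT arrays alone, 1 with those arrays and the replicate block, 13 with arrays centred on their medians, 43 with a mean-dependent, robust prior, 153 with array weights (26 of them lower) and 5 without both A arrays. Leaving out 1 array gave 9 to 16, with 1 lower call (SNORA54) among the 15 without WT uninduced A. It was 21 with probe sets of a gene averaged, 29 with dim genes left out, 24 by ordinary two-way analysis of variance and 16 over all probe sets (1 of them lower). For the difference between the lines, the count of 0 became 7 with dim genes left out, 9 with the robust prior and 4 with array weights. The cause was not tested. Of genes that did not pass, some log2 changes near 0 turned sign. Centring gave ERN1 -0.0077 and SEC24A -0.0027. Array weights gave PRDX4 -0.0040, GPX8 -0.064, QSOX1 -0.0083, ERN1 -0.0056, ATF6 -0.048, ATF3 0.010, CHAC1 -0.0081 and GCLM 0.015. Without the A arrays the values were PRDX4 -0.0030, GPX8 -0.128, QSOX1 -0.0070, ERN1 -0.037, ATF6 -0.039, ATF3 0.053, CHAC1 -0.021, NQO1 -0.018 and GCLM 0.012. With 1 array left out, the ranges were SIL1 -0.118 to 0.0033, PRDX4 -0.013 to 0.035, GPX7 -0.037 to 0.196, GPX8 -0.113 to 0.198, QSOX1 -0.020 to 0.124, EDEM1 -0.032 to 0.157, ERN1 -0.036 to 0.031, ATF6 -0.028 to 0.045, ATF3 -0.073 to 0.036, CHAC1 -0.028 to 0.056, HMOX1 -0.017 to 0.155, NQO1 -0.048 to 0.128, GCLM -0.046 to 0.0032, TXNRD1 -0.091 to 0.00067, HMGCS1 -0.014 to 0.066 and SEC24A -0.026 to 0.028. Groups of 3 arrays limit the precision.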
